A study of Mus musculus with 24 samples.

Results

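Genes of pericytes and vascular smooth muscle cells were followed in the mouse choroid, with and without laser injury and with and without CEACAM1. They were chosen by symbol, as genes known for these cells, and their rows were taken from a table of 56065 genes. All 10 genes were found, each in a single row, and all 10 passed the filter on low values. The series holds 24 libraries of the choroid. Wild type mice without laser gave 4 libraries (21, 22, 26 and 27), Ceacam1-/- mice without laser 4 (23, 24, 25 and 28), wild type mice after laser 9 (1, 2, 3, 11, 12, 13, 16, 17 and 19) and Ceacam1-/- mice after laser 7 (4, 5, 6, 7, 14, 15 and 18). Laser treatment meant 6 spots in each eye from a frequency-doubled Nd:YAG laser, with a power of 150 mW, a spot of 200 µm and a pulse of 100 ms, under ketamine and xylazine after the pupils had been dilated with tropicamide and phenylephrine. This injury is used to induce choroidal neovascularization, the growth of new vessels from the choroid. Ceacam1-/- mice lack CEACAM1 in every cell from birth, through a deletion at the start of the gene, on a C57BL/6J background, and the unlasered mice were compared with wild type littermates of both sexes. The age of the lasered mice and the time between laser and dissection were not given in the sources used here, nor was it stated that each laser library came from a different mouse.

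Pericytes are the cells that sit on the wall of capillaries, inside the basement membrane of the endothelium, and smooth muscle cells form the contractile wall of arteries and arterioles. Together they are called mural cells. Endothelial cells release the ligand PDGF-B, which binds the receptor PDGFRB on mural cells and draws them to growing vessels. In the eye, loss of this signal strips capillaries of pericytes, and scar tissue at sites of laser injury contains contractile cells that carry smooth muscle actin.

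The 10 genes lie on 8 chromosomes (GRCm39). Of the recruitment pair, Pdgfrb (ENSMUSG00000024620) encodes the receptor and Pdgfb (ENSMUSG00000000489; chromosome 15, 79880009 to 79899181, minus strand) its ligand. The 10 are called mural genes below for short, although the ligand comes from endothelial cells. Rgs5 (ENSMUSG00000026678; chromosome 1, 169483036 to 169524887, plus strand) encodes a regulator of G protein signalling that is a customary pericyte marker, and Cspg4 (ENSMUSG00000032911; chromosome 9, 56772317 to 56807187, plus strand) encodes NG2, a proteoglycan of the mural cell surface. Notch3 (ENSMUSG00000038146; chromosome 17, 32339794 to 32385893, minus strand) encodes the Notch receptor of mural cells. Kcnj8 (ENSMUSG00000030247; chromosome 6, 142510563 to 142517830, minus strand) and Abcc9 (ENSMUSG00000030249; chromosome 6, 142533588 to 142648571, minus strand) encode the pore and the sulfonylurea receptor of the vascular ATP-sensitive potassium channel, and they are separated by 15757 bases on the same strand. Acta2 (ENSMUSG00000035783; chromosome 19, 34217737 to 34232990, minus strand), Tagln (ENSMUSG00000032085; chromosome 9, 45840909 to 45847404, minus strand) and Myh11 (ENSMUSG00000018830; chromosome 16, 14012399 to 14109236, minus strand) encode the contractile apparatus, namely smooth muscle actin, the actin-binding protein transgelin and smooth muscle myosin heavy chain.

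Contractile genes of smooth muscle are known targets of serum response factor, which binds the CArG box. The RefSeq table of promoters held 6 of the 10 genes (Rgs5, Cspg4, Notch3, Kcnj8, Abcc9 and Acta2) and was searched in the 250 bases before each start for CC, then 6 bases of which at least 5 were A or T, then GG. The motif reads the same on both strands. Tagln and Myh11, the other contractile genes of the 10, and Pdgfrb and Pdgfb were not searched. Only Acta2 among the 6 had it, and it had 2 copies, of which neither was made of A and T alone in the middle. They are shown with 10 bases on either side, 5′ to 3′ on the minus strand, with the box in capitals, because, of Acta2, Tagln and Myh11, Acta2 had the highest level and the largest positive difference after laser in the wild type:
Acta2, chr19:34232838-34232867: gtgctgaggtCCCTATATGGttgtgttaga
Acta2, chr19:34232788-34232817: cgtctttgctCCTTGTTTGGgaagcgagtg
Counted from the RefSeq start to the first base of the box, the copies began 84 and 34 bases upstream. The gene models of the files place the start of Acta2 217 bases further upstream, so that both copies lie downstream of that start. Of all 32851 windows of this length in the table, 8.59% held at least 1 copy and 0.67% held 2 or more. Among 12 of 14 other contractile genes with a window, only Myl9, the smooth muscle myosin light chain, held the motif. The windows came from the RefSeq table for GRCm38.p6 and were placed on GRCm39 by exact match. A match of letters is a description, and it was not tested whether the factor bound there.

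Every value below is a normalized count, the estimated reads of a gene scaled for library size and transcript length. Values summed to 23979741 to 27093809 in wild type libraries without laser, 23717571 to 28563124 in wild type libraries with laser, 23819561 to 35094410 in Ceacam1-/- libraries without laser and 23704346 to 25940731 in Ceacam1-/- libraries with laser. Ceacam1 (ENSMUSG00000074272; chromosome 7, 25161128 to 25177257) served as a check of the genotype labels. Its normalized counts were 958, 5027, 1242 and 4596 in wild type libraries 21, 22, 26 and 27, and 405, 505, 508 and 1171 in Ceacam1-/- libraries 23, 24, 25 and 28. After laser they ran from 774 to 8367 in the wild type (median 996) and were 308, 419.9, 438, 335, 139.6, 905 and 67.8 in Ceacam1-/- libraries 4, 5, 6, 7, 14, 15 and 18. Reads thus remained in the Ceacam1-/- libraries, with Ceacam1-/- library 28 inside the wild type range without laser and library 15 inside the wild type range with laser, and the remaining Ceacam1-/- libraries below every wild type library under the same treatment.

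The libraries differed in the tissue they contained. The photoreceptor list of 8 genes summed to between 538333 and 1019736 normalized counts in libraries 14, 15, 18, 21 and 23, and to between 6961 and 257403 in the other 19. Of these 5 libraries, 3 were Ceacam1-/- with laser (949803 in library 14, 541776 in 15 and 1019736 in 18), library 21 was wild type without laser (538333) and library 23 was Ceacam1-/- without laser (587056). The same libraries were low in the 10 mural genes. The 10 mural genes summed to 9828, 14427 and 10648 in libraries 14, 15 and 18, against 47867, 48845, 41556 and 27184 in the other Ceacam1-/- laser libraries 4, 5, 6 and 7. In libraries 21 and 23 they summed to 21719 and 19968, the lowest sums of their groups. The list of 12 other pericyte genes ran the other way, since it summed to 22566, 15530 and 21102 in libraries 14, 15 and 18, against 12116 to 14297 in libraries 4 to 7. Its most abundant gene was Vtn, the adhesion protein vitronectin, with 19782, 11491 and 17385 normalized counts in libraries 14, 15 and 18 and 1204 to 3440 in libraries 4 to 7. The 11 genes other than Vtn, set apart after these values were seen, summed to 2784, 4039 and 3717 in libraries 14, 15 and 18 and to 9168 to 12436 in libraries 4 to 7. The lowest value of each of the 10 genes over all 24 libraries was in library 18 for 6 genes and in library 14 for 4. Whether the admixture of retina set the mural levels was not tested, and in tissue RNA fewer cells of a type and less RNA per cell cannot be told apart. Other tissues varied as well. Library 23 had 560870 normalized counts in the Schwann cell list, led by the myelin gene Mbp, and libraries 22, 28 and 15 had 408296, 453246 and 526582 in the surface epithelium list, led by the keratin Krt15. No gene of either list, of the photoreceptor list or of the mural genes was at 0 throughout any group.

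**Figure D1:**
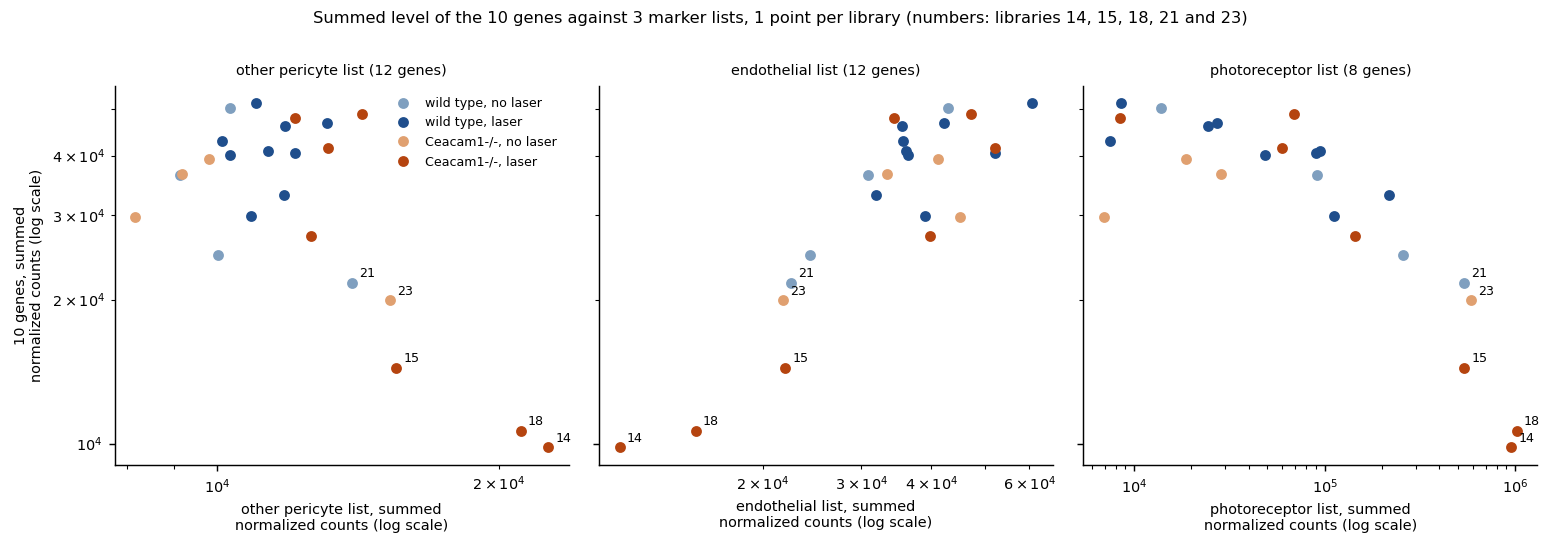
Summed normalized counts of the 10 mural genes (y axis, log scale) against those of the other pericyte, endothelial and photoreceptor lists (x axes, log scale), with 1 point for each of 24 libraries coloured by group. Libraries 14, 15, 18, 21 and 23, with photoreceptor sums from 538333 to 1019736, lie at the bottom right of the photoreceptor panel and at the bottom left of the endothelial panel, and in the other pericyte panel, whose sums include Vtn, they lie low and to the right, at 13922 to 22566.

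The mural genes were well expressed in all groups. Levels between genes were compared per kilobase of the canonical transcript. Without laser, the wild type choroid held 3523 ± 1487 normalized counts per kb of Acta2 (SD, n = 4), 2463 ± 893 of Rgs5 and 1945 ± 798 of Tagln, and the ranges of these 3 over the libraries overlapped. Pdgfrb followed at 494 ± 216, then Myh11 at 363 ± 186 and Kcnj8 at 272 ± 77.6. The order closed with Pdgfb at 191 ± 75.5, Abcc9 at 179.7 ± 47.2, Notch3 at 176 ± 87.2 and Cspg4 at 108 ± 61.9, each within the spread of its neighbours. Within a library the order was steadier, and Acta2 stood first and Pdgfrb in place 4 in every one of the 24 libraries. Rgs5 and Tagln shared the places between them, and the other 6 genes changed places from library to library. In the lasered wild type choroid, Acta2 was at 6067 ± 1441 per kb (SD, n = 9), Tagln at 2451 ± 854, Rgs5 at 2095 ± 486 and Pdgfrb at 839 ± 230.2. Between the lowest and the highest library, levels spanned from 4.58-fold for Pdgfb to 16.7-fold for Myh11.

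**Figure D2:**
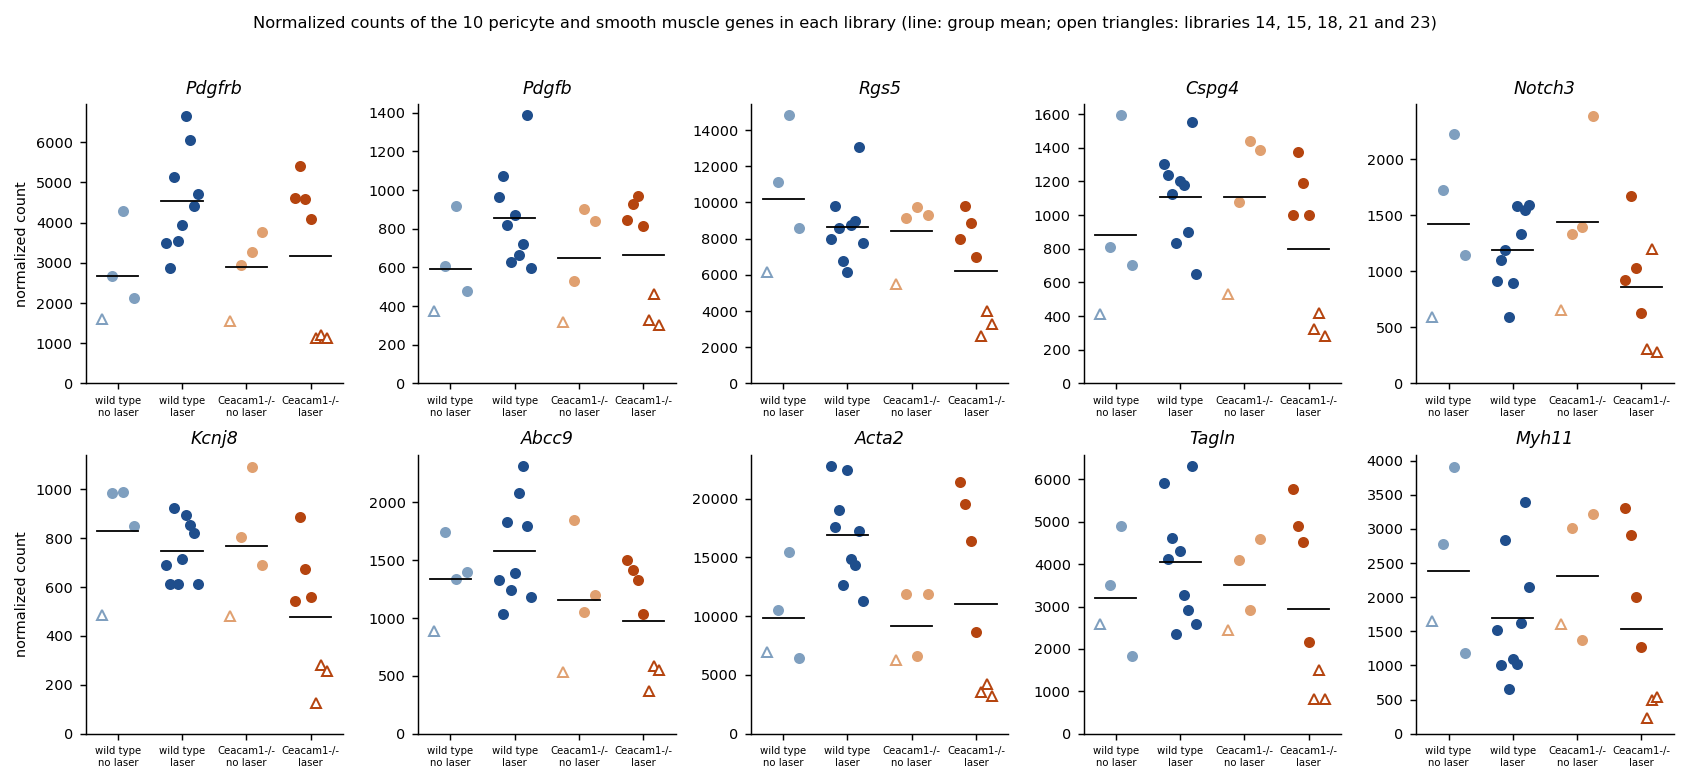
Normalized counts (y axis, from 0) of each of the 10 genes in 24 libraries, grouped by genotype and laser on the x axis, with lines at group means and open triangles for libraries 14, 15, 18, 21 and 23. For Pdgfrb the filled points of the Ceacam1-/- laser group, 4079 to 5402, lie among the wild type laser points, and the triangles of that group, 1136 to 1194, lie below all of them.

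The first comparison asked what laser injury did to mural genes in the wild type choroid. None of the 10 passed the test. Pdgfrb and Acta2 had the largest positive differences, a little under a log2 unit. Pdgfb (0.56), Cspg4 (0.46), Tagln (0.35) and Abcc9 (0.23) also lay above 0. Kcnj8 (-0.11), Notch3 (-0.16), Rgs5 (-0.19) and Myh11 (-0.52) lay below it, so the pericyte genes stood on both sides. In the same fit 5.28% of 19950 genes passed at an adjusted p under 0.05 (limma, Benjamini-Hochberg adjustment over all genes), 844 of them higher and 209 lower after laser. The number called was 1053, and it was 479 without library 21 and 554 without library 27. The groups overlapped for all 10 mural genes, while 6.25% of all genes had groups that did not. The median log2 difference of the 10 genes was 0.29, with 6 of 10 positive, beside a median of -0.10 over all genes, of which 42.1% were positive. All 8 photoreceptor genes (median -1.48) and all 12 skeletal muscle genes were lower after laser in the wild type. With the mean of the photoreceptor list as a covariate, Abcc9 (-0.038) and Tagln (-0.052) became negative. With that of the skeletal muscle list, Rgs5 (0.083), Notch3 (0.14) and Kcnj8 (0.25) became positive. The count of positive genes thus depended on the covariate, and the part of these tissues was not tested. Under some other settings 1 of the 10 passed, among them Pdgfrb without libraries 14, 15 and 18 (limma adjusted p = 0.0434), where 10.8% of all genes passed, and Acta2 in a fit of the wild type libraries alone (limma adjusted p = 0.0371), where 11.6% did. With array weights 3 of the 10 passed (Pdgfrb, Pdgfb and Acta2), and so did 32.6% of all genes.

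Pdgfrb, the receptor by which mural cells are recruited, was at 1604, 2669, 4299 and 2119.9 in wild type libraries 21, 22, 26 and 27. After laser it ran from 2878 to 6661 with a median of 4417. Of the 9 lasered libraries, 5 lay above every library without laser, and the groups met only through library 26. The log2 difference was 0.81 ± 0.41 (SE; 95% confidence interval -0.03 to 1.65; limma adjusted p = 0.266). Pdgfb, the ligand, was at 372, 606, 916 and 481 without laser and ran from 595 to 1389 after it (median 817). Only 3 of 9 lasered libraries lay above the highest library without laser, and the log2 difference was 0.56 ± 0.34 (limma adjusted p = 0.360).

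Acta2 was at 6944, 10501, 15417 and 6430.2 without laser and between 11319.7 and 22743 after it (median 17245). As for Pdgfrb, 5 of the 9 lasered libraries exceeded all 4 without laser and library 26 alone made the groups overlap. Its log2 difference was 0.84 ± 0.43 (95% confidence interval -0.05 to 1.73; limma adjusted p = 0.279). Tagln, whose protein binds actin filaments, was at 2589, 3516, 4899 and 1841 without laser and between 2343 and 6305 after it (median 4132), with 2 lasered libraries above the range without laser and a log2 difference of 0.35 ± 0.44 (limma adjusted p = 0.678). Myh11, the most restricted marker of mature smooth muscle among the 3, stood on the other side of 0. It was at 1653, 2775, 3901 and 1183 without laser and between 662 and 3388 after it (median 1526). Of the 9 lasered libraries, 4 lay below all 4 without laser, and the log2 difference was -0.52 ± 0.57 (95% confidence interval -1.69 to 0.66; limma adjusted p = 0.625).

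Of the pericyte genes, Rgs5 was at 6179, 11108, 14806 and 8593 without laser and between 6152 and 13084 after it (median 8610.3), so that the lasered libraries lay almost wholly within the earlier range. Its log2 difference was -0.19 ± 0.30 (95% confidence interval -0.82 to 0.44; limma adjusted p = 0.746). Cspg4 was at 409.6, 811, 1591 and 703 without laser and between 648 and 1554 after it (median 1178), and no lasered library exceeded library 26. The log2 difference was 0.46 ± 0.40 (limma adjusted p = 0.531). Notch3, which maintains mural cells, was at 597, 1730.3, 2221 and 1147 without laser and between 596 and 1588 after it (median 1193), with a log2 difference of -0.16 ± 0.43. The channel genes also overlapped. Kcnj8 was at 487, 984, 987 and 851 without laser and between 611 and 925 after it (median 716), and Abcc9 at 886, 1742, 1334 and 1401 without laser and between 1033 and 2315 after it (median 1392), with log2 differences of -0.11 ± 0.35 and 0.23 ± 0.34. For Abcc9, 4 lasered libraries lay above the range without laser, and for Kcnj8 none did.

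The second comparison asked the same of Ceacam1-/- mice. Again none of the 10 genes passed, where 3.72% of 19950 genes did (limma, 413 higher and 329 lower, 742 in all), and none of the 10 had groups without overlap, where 2.13% of all genes did. The median log2 difference of the mural genes was -0.58, with 1 of 10 positive, beside 0.019 over all genes. All 8 photoreceptor genes were higher after laser (median 2.30) and all 12 skeletal muscle genes lower (-2.09). With the mean of the photoreceptor list as a covariate, the mural median was -0.020, with 4 of 10 positive. With that of the skeletal muscle list it was 0.062, with 6 of 10 positive. The number of genes called depended on single libraries, with 148 without library 25, 255 without 24, 466 without 5 and 2488 without 23. The sign of the mural median depended on the libraries kept. The median was 0.20 without libraries 14, 15 and 18, and -0.058 without libraries 21 and 23 as well. Libraries 14, 15 and 18 lay below libraries 4 to 7 for 9 of the 10 genes. Notch3 was the exception, with 1201 in library 15 against 631 in library 7. The share of all genes divided in this way was not counted, and the 3 libraries were set apart after their values were seen. The split was not particular to mural genes. Endothelial sums were 11077, 21907 and 15154 in libraries 14, 15 and 18 and 34359 to 52157 in libraries 4 to 7. Leaving out libraries 14, 15 and 18, none of the 10 passed, while 10.2% of all genes did.

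Pdgfrb was at 1559, 2952, 3268 and 3774 in Ceacam1-/- libraries 23, 24, 25 and 28. After laser it was at 4617, 5402, 4583 and 4079 in libraries 4, 5, 6 and 7 and at 1139.9, 1194 and 1136 in libraries 14, 15 and 18. The first 4 thus exceeded every Ceacam1-/- library without laser and the last 3 fell short of every one. With all libraries the log2 difference was -0.10 ± 0.42 (limma adjusted p = 0.915), and without libraries 14, 15 and 18, a choice made after seeing the data, it was 0.76 ± 0.30 (limma adjusted p = 0.115). Acta2 was at 6306, 11871, 6589.8 and 11890.5 without laser. After laser it was at 21411, 19542, 16391 and 8636 in libraries 4 to 7 and at 3541, 4266 and 3183 in libraries 14, 15 and 18, and 3 lasered libraries lay above the unlasered range and 3 below it. The log2 difference was -0.066 ± 0.45 (limma adjusted p = 0.946), and 0.83 ± 0.32 without those 3 libraries (limma adjusted p = 0.108).

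Kcnj8 had the smallest p of the 10. It was at 483, 804, 1092 and 691 without laser and at 544, 887, 675, 559.6, 127, 279 and 257 in libraries 4, 5, 6, 7, 14, 15 and 18. Libraries 4 to 7 stayed inside the unlasered range and libraries 14, 15 and 18 below it. The log2 difference was -0.87 ± 0.37 (limma adjusted p = 0.182), and -0.17 ± 0.25 without libraries 14, 15 and 18. Rgs5 was at 5520.0, 9129, 9741 and 9313 without laser and at 7962, 9812, 8849, 6993, 2625, 4015 and 3303 after it, with a log2 difference of -0.56 ± 0.32 that became 0.020 ± 0.25 without the 3 libraries. Myh11 was at 1613, 3015, 1379 and 3217 without laser and at 3304, 2908, 2003, 1264, 233, 497 and 533 after it. Its log2 difference was -1.02 ± 0.59 with all libraries, the most negative of the 10, and 0.043 ± 0.47 without the 3.

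Of the other genes, 4 followed the same division of libraries and Notch3 did not. Pdgfb was at 316, 531, 903 and 839 without laser and at 844, 928, 967, 813, 329, 462 and 303 after it (log2 difference 0.0095 ± 0.35). Cspg4 was at 533, 1077, 1438 and 1387 without laser and at 999, 1372, 1193, 1002, 326, 418 and 279 after it (-0.62 ± 0.42). Abcc9, which pairs with Kcnj8 in the channel, was at 534, 1852, 1054 and 1200.3 without laser and at 1505, 1418, 1333, 1035, 372, 585 and 553 after it (-0.29 ± 0.36). For all 3 genes the range without laser contained the values of libraries 4 to 7, save 2 Pdgfb values just above it. Tagln was at 2452, 4099.8, 2926 and 4587 without laser and at 5762, 4906, 4534, 2172, 829.4, 1509.7 and 818 after it (-0.60 ± 0.46), and Notch3 was at 651, 1334, 1392 and 2385 without laser and at 919, 1669, 1029, 631, 304, 1201 and 283 after it (-0.85 ± 0.45). Without libraries 14, 15 and 18, 8 of the 10 mural genes had a positive log2 difference and their median was 0.20. Without libraries 21 and 23 as well, 4 of the 10 were positive and the median was -0.058.

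Whether laser acted differently in the 2 genotypes was tested as an interaction in the model of 24 libraries. No mural gene passed and 0% of 19950 genes did at an adjusted p under 0.05 (limma), while 1241 genes, or 6.22%, had an unadjusted p under 0.05 and none of the 10 mural genes was among them. All 10 estimates were negative, from -0.37 ± 0.44 for Rgs5 to -1.08 ± 0.58 for Cspg4, and the lowest adjusted p of a mural gene was 0.640. Without libraries 14, 15 and 18, the estimates of Pdgfrb and Acta2 were -0.053 ± 0.39 and -0.0047 ± 0.42, and those of Rgs5 and Myh11 were 0.21 ± 0.33 and 0.56 ± 0.62. The intervals still spanned more than a log2 unit for every one of the 10 genes.

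In the unlasered choroid, where the study compared genotypes, none of the 10 mural genes passed and 0% of 20057 genes did (limma, 307 of them with an unadjusted p under 0.05, none of these mural). The deleted gene Ceacam1 was thus not called either. Its log2 difference was -1.95 (exact permutation test, p = 0.0571), so the absence of calls here says little. The study, with DESeq2 and sex as a covariate, did report differentially expressed genes in this comparison. Differences of Ceacam1-/- from wild type were small on both sides of 0, from -0.30 ± 0.38 for Abcc9 to 0.41 ± 0.45 for Cspg4, and the median was 0.020. For Pdgfrb the 95% confidence interval of the log2 difference was -0.69 to 0.96, for Rgs5 it was -0.95 to 0.48 and for Acta2 -0.88 to 0.73. Groups overlapped for all 10 genes, while 1.36% of all genes had groups that did not.

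After laser, all 10 mural genes were lower in Ceacam1-/- than in wild type, without any passing the test. The median log2 difference was -0.72, beside 0.013 over all genes, and 0.0202% of 19757 genes passed (limma, 4 genes, and 61 without library 19, 25 without library 17 and 7 without library 4). Unadjusted p lay under 0.05 for 5 of the 10 (Pdgfrb, Rgs5, Kcnj8, Abcc9 and Acta2), beside 22.7% of all genes. The lowest adjusted p was that of Abcc9, with a log2 difference of -0.82 ± 0.28 (95% confidence interval -1.42 to -0.23; limma adjusted p = 0.147). Kcnj8 differed by -0.88 ± 0.31 (limma adjusted p = 0.154) and Acta2 by -0.98 ± 0.39 (limma adjusted p = 0.172). Rgs5 differed by -0.60 ± 0.26 and Pdgfrb by -0.78 ± 0.35, with adjusted p of 0.195 and 0.209 in limma. None of the 10 had groups without overlap, as 0.147% of all genes did. Libraries 14, 15 and 18 lay below every wild type library for 9 of the 10 genes, joined by library 7 for Acta2 and Tagln and by libraries 4 and 7 for Kcnj8, and for Notch3 only 14 and 18 did. The share of all genes for which these 3 libraries lay below every wild type library was not counted, so 9 of 10 is no trait of mural genes. Sums of the RPE list, 64993, 54150 and 38233 in libraries 14, 15 and 18, also lay below every wild type library (lowest 220750). So did those of the melanocyte list, 9510, 24211 and 8848 (lowest 64424). Lists of other cell types lay on the same side, with 12 of 12 endothelial genes lower in Ceacam1-/- (median log2 difference -0.52), 8 of 8 RPE genes (-1.22), 12 of 12 skeletal muscle genes (-1.35), 6 of 6 myofibroblast genes (-1.08) and 6 of 6 melanocyte genes (-0.98). The photoreceptor list lay on the other, with 8 of 8 genes higher (median 2.02), and no gene of these lists passed. Without libraries 14, 15 and 18 the signs divided evenly, with 5 of 10 positive, and the median was 0.025. Abcc9 was then at -0.22 ± 0.20, Kcnj8 at -0.18 ± 0.16, Acta2 at -0.080 ± 0.24 and Pdgfrb at 0.083 ± 0.20.

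**Figure D3:**
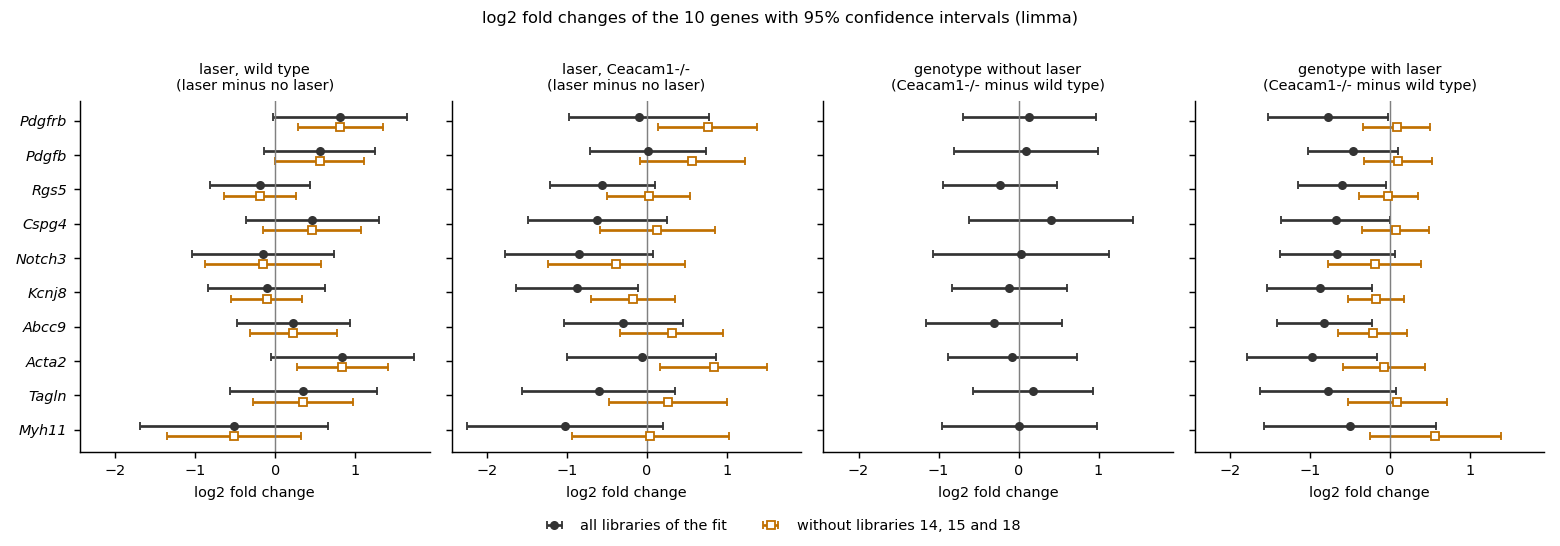
Log2 fold changes (x axis) of the 10 genes (rows) with 95% confidence intervals from limma, for laser in each genotype and for Ceacam1-/- against wild type without and with laser, black with all libraries and orange without libraries 14, 15 and 18. With all libraries the 10 genotype differences after laser lie between -0.98 and -0.46, and without the 3 libraries they lie on both sides of 0.

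Because the genes moved together over the 24 libraries, though less so over the 19 without libraries 14, 15, 18, 21 and 23, they were also set against each other within a library, where the amount of mural RNA cancels in part. Rgs5, the most abundant pericyte gene, and Myh11, the most restricted contractile gene, were taken as denominators after their values had been seen, so these ratios are a description. In the wild type, Pdgfrb was 0.240 to 0.290 of Rgs5 without laser and 0.293 to 0.761 after it, and the lowest lasered library lay just above the highest without laser. Pdgfb was 0.0546 to 0.0619 of Rgs5 without laser and 0.0758 to 0.141 after it. Acta2 was 0.748 to 1.12 times Rgs5 without laser and 1.318 to 3.65 times after it. These were 3 of the 9 other genes, and relative to Rgs5 4.77% of all genes were likewise higher after laser without overlap. Pdgfb is the endothelial ligand, and its r with the endothelial list was 0.883 over the 19 libraries. Mural RNA therefore need not cancel in its ratio to Rgs5. On the log2 scale the 3 ratios differed by 1.00, 0.75 and 1.03, beside a median of 0.089 over all genes relative to Rgs5.

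In Ceacam1-/- the ratios overlapped. Pdgfrb was 0.282 to 0.405 of Rgs5 without laser and 0.297 to 0.583 after it, Pdgfb 0.0573 to 0.0927 and 0.0918 to 0.126, and Acta2 0.677 to 1.30 times and 0.964 to 2.69 times. None of the 9 genes was higher relative to Rgs5 without overlap, against 4.57% of all genes. Relative to Myh11, it was Acta2 alone among 9 genes that was separated. It was 3.70 to 4.78 times Myh11 without laser and 5.97 to 15.2 times after it, a log2 difference of 0.96, and 3.91% of all genes were higher without overlap in the same way, with a median over all genes of 1.04. In the wild type Acta2 was 3.78 to 5.44 times Myh11 without laser and 5.09 to 20.5 times after it, so that the groups overlapped. There, none of the 9 genes was separated from Myh11, against 2.07% of all genes. Since Myh11 had the most negative laser difference of the 10 in each genotype, the ratios of all 9 others to it were higher on average by construction. Their median log2 difference was 0.86 in the wild type and 0.46 in Ceacam1-/-, beside 0.41 and 1.04 over all genes.

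**Figure D4:**
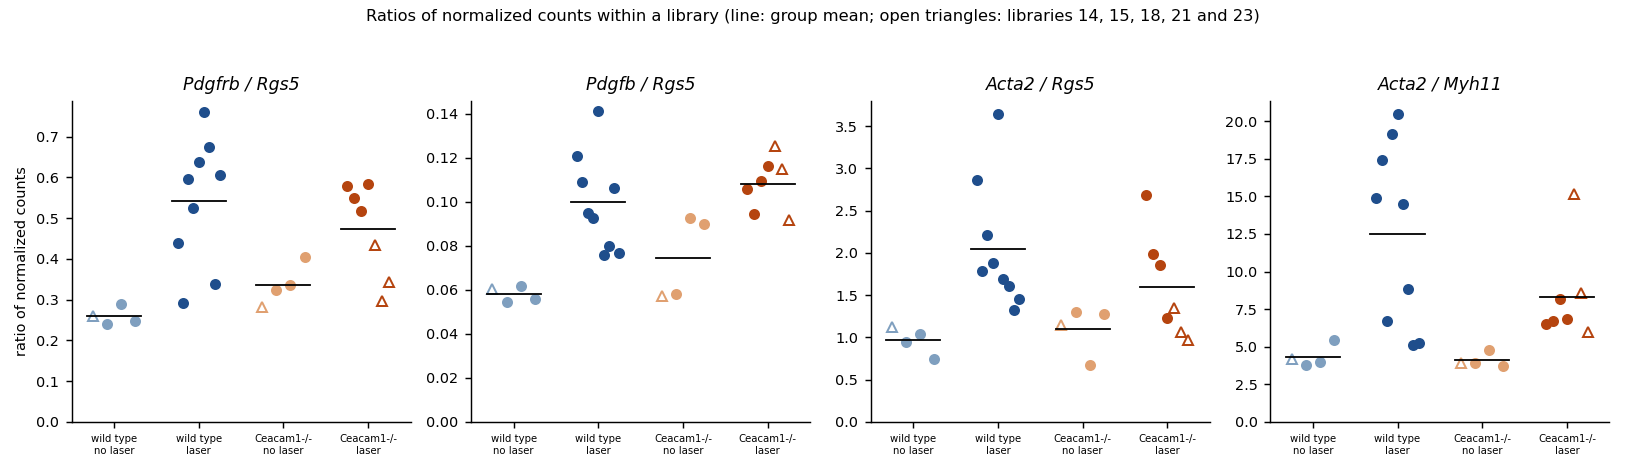
Ratios of normalized counts within a library (y axes, from 0) by group on the x axis, 1 point per library with lines at group means and open triangles for libraries 14, 15, 18, 21 and 23. Wild type points without and with laser do not overlap for Pdgfrb, Pdgfb and Acta2 relative to Rgs5, and Ceacam1-/- points do not overlap for Acta2 relative to Myh11.

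How closely the genes followed each other was described by Pearson's r of log2 values after the group means had been subtracted. Points were libraries and shared their tissue composition. Over 24 libraries the 45 pairs had a median r of 0.778, from 0.604 for Notch3 with Acta2 to 0.957 for Acta2 with Tagln. Over the 19 libraries without 14, 15, 18, 21 and 23 the median was 0.427, from -0.22 for Pdgfb with Abcc9 to 0.909 for Acta2 with Tagln. The actin and its binding partner thus stayed the closest pair, followed by Pdgfb and Cspg4 at 0.87, while the receptor Pdgfrb and its ligand Pdgfb, at 0.73 over 24 libraries, had an r of 0.06 over 19. The mean of the 10 genes followed that of the other pericyte list with r of 0.947 over 24 libraries and 0.725 over 19, the other contractile list with 0.878 and 0.707, the endothelial list with 0.920 and 0.601 and the Notch list with 0.877 and 0.774. For the fibroblast list r was 0.855 over 24 libraries and 0.075 over 19, for the other PDGF genes 0.844 and 0.175, and for the myeloid list 0.811 and 0.316. With the photoreceptor list r was -0.807 and -0.610.

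**Figure D5:**
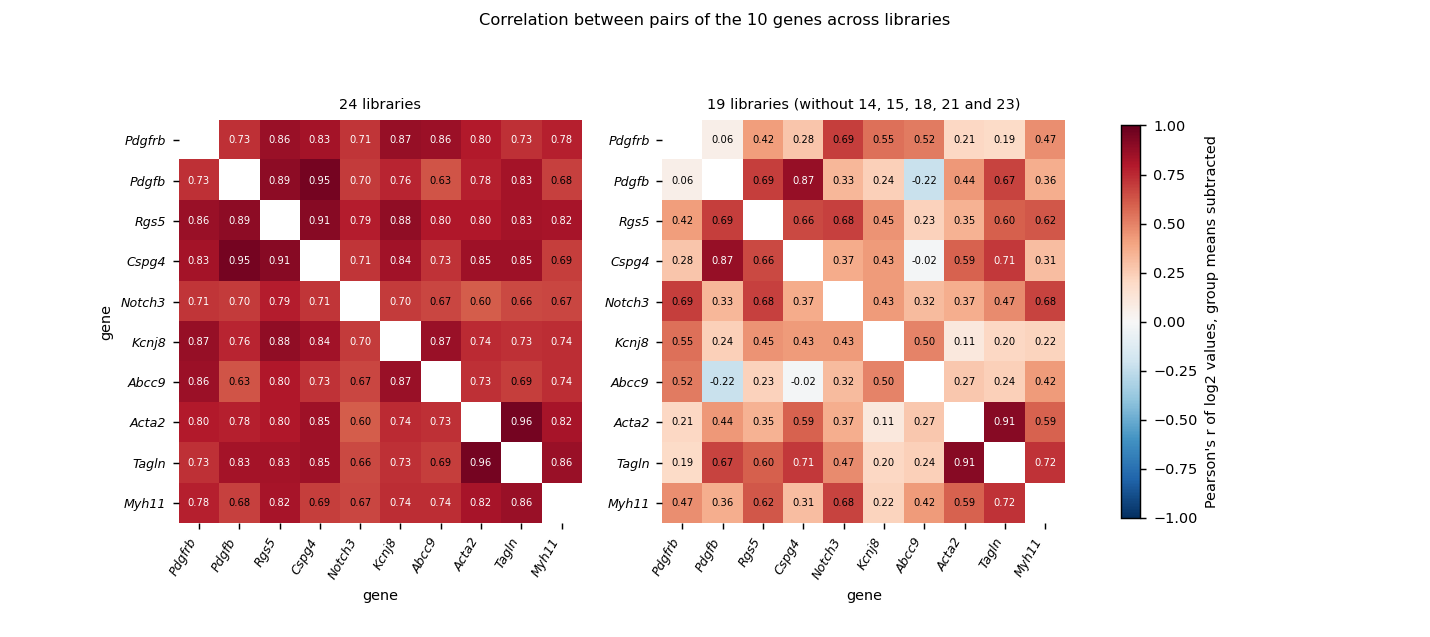
Pearson's r of log2 values with group means subtracted (colour scale, -1 to 1) for the pairs of the 10 genes (rows and columns), over 24 libraries and over 19 libraries without 14, 15, 18, 21 and 23. Acta2 with Tagln is the highest pair in both panels, 0.957 and 0.909, and the median over pairs is 0.778 in the left panel and 0.427 in the right.

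The genes most like 4 of the mural genes were sought by the same measure among 13952 genes with a mean of at least 100, over all 24 libraries. For Pdgfrb these were Smoc1 (r of 0.970), Ltbp3 (0.960), Phldb2 (0.954), Nrp1 (0.952) and Zfta (0.952), among which Ltbp3 encodes a binding protein of latent TGF-beta and Nrp1 a coreceptor of VEGF. For Rgs5 they were Tmem44 (0.951), Emcn (0.938), Acvrl1 (0.935), Gata2 (0.934) and Rasip1 (0.934). Emcn encodes an endothelial sialomucin and Acvrl1 an endothelial receptor of the BMP family. For Myh11 they were P2rx1 (0.936), Cnn1 (0.923), Mylk (0.919), Sertad4 (0.916) and Aoc3 (0.915), of which Cnn1 and Mylk encode calponin and myosin light chain kinase of smooth muscle. For Pdgfb they were Arhgef40 (0.967), Inka1 (0.964), Tmem88 (0.958), Rras (0.954) and Gm49172 (0.954), and the mural gene Cspg4 came next. No other mural gene was among the 5 most alike of any of the 4. The search was not repeated over the 19 libraries without 14, 15, 18, 21 and 23. Over those 19 the median r between pairs of mural genes was 0.427, against 0.778 over 24. How far the r values of the most alike genes rest on the libraries left out was not tested.

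Other genes of these cells and pathways were read from lists of genes known for them. Of 12 other pericyte genes none passed after laser in the wild type, and 1 fell in Ceacam1-/-, where 5.28% and 3.72% of all genes passed. This was Atp13a5, an ion transport ATPase known as a pericyte marker of the brain. Its normalized counts were 108, 204, 152 and 215 in Ceacam1-/- libraries without laser and between 10.7 and 67.7 with laser, with no overlap. The log2 difference was -2.16 ± 0.45 (limma adjusted p = 0.00919), and it was -2.44 ± 0.50 without libraries 14, 15 and 18 (limma adjusted p = 0.00276). It passed whichever single library was left out, but not with the mean of the skeletal muscle list as a covariate (-1.98 ± 0.54, limma adjusted p = 0.0525) nor in a fit of the Ceacam1-/- libraries alone (limma adjusted p = 0.132). In the wild type it was at 51.0, 95.8, 144 and 64.9 without laser and 32.1 to 137 with it, a log2 difference of -0.53 ± 0.43, and the interaction had an adjusted p of 0.640 in limma. Cd248, the surface protein endosialin of pericytes and fibroblasts, was at 372, 1022, 1004 and 1005 in the wild type without laser and from 1375 to 3675 with it. Its groups did not overlap, as those of 6.25% of all genes did not, and the log2 difference was 1.38 ± 0.46 (limma adjusted p = 0.0829). Without libraries 14, 15 and 18, which are not wild type but share in the estimate of the spread, it passed in the wild type with an adjusted p of 0.00729 and in Ceacam1-/- with 1.55 ± 0.38 (limma adjusted p = 0.0107). The list's median log2 difference was 0.32 in the wild type and -0.15 in Ceacam1-/-. The median in Ceacam1-/- was 0.57 without libraries 14, 15 and 18, with 9 of 12 genes positive, and 10.8% of all genes passed in the wild type and 10.2% in Ceacam1-/-. Mcam, the adhesion molecule CD146 of mural and endothelial cells, then passed in the wild type (0.92 ± 0.20, limma adjusted p = 0.00413) and in Ceacam1-/- (0.85 ± 0.23, limma adjusted p = 0.0239). Enpep, an aminopeptidase of pericytes, passed in Ceacam1-/- (0.90 ± 0.26, limma adjusted p = 0.0314).

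Of 14 other contractile genes none passed in the wild type and 1 fell in Ceacam1-/-, Synpo2, which encodes an actin-bundling protein of the Z-disc that is made in both smooth and striated muscle. It was at 1564, 6103, 4911 and 2812 without laser and between 794 and 2654 with it, and the groups overlapped. The log2 difference was -1.27 ± 0.35 (limma adjusted p = 0.0451) and lay close to the threshold. It no longer passed in 17 of 24 fits that left out 1 library each, with the highest adjusted p without libraries 24 and 25 (0.204 and 0.236 in limma), nor without libraries 14, 15 and 18 (limma adjusted p = 0.0531). The list's median was -0.18 in the wild type and -0.77 in Ceacam1-/-. Skeletal muscle lay in the same libraries. Its list of 12 genes, led by the calcium pump Atp2a1, summed to 436447 to 806721 in the wild type without laser and 115765 to 480348 with it, and to 75134 to 1373544 and 18918 to 316571 in Ceacam1-/-. All 12 of its genes were lower after laser in each genotype and none passed. With the mean of this list as a covariate, Synpo2 was at -0.43 ± 0.28 (limma adjusted p = 0.499), and 2.28% of all genes passed in Ceacam1-/-. The same covariate added calls in the wild type, where 18.3% of all genes then passed. Among them were Des, the intermediate filament desmin of muscle, of the contractile list (0.77 ± 0.23, limma adjusted p = 0.0277), Cd248, Mcam and Anpep of the pericyte list, Pdgfra, Dll4 and the endothelial cadherin Cdh5, which were higher after laser, while Rom1 and Nrl of the photoreceptor list passed as lower. For Tpm2, a tropomyosin of smooth and striated muscle and the most abundant of the contractile list, the part of skeletal muscle was not tested.

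None of the 4 other PDGF ligands and receptors (Pdgfa, Pdgfc, Pdgfd and Pdgfra) passed in either genotype. The list's median log2 difference was 0.37 in the wild type and 0.27 in Ceacam1-/-, where the highest of the 4 was 0.55 with all libraries. Without libraries 14, 15 and 18, a choice made after seeing the data, 10.8% of all genes passed in the wild type and 10.2% in Ceacam1-/-. Pdgfra, the receptor of fibroblasts, then rose by 0.98 ± 0.19 in the wild type (limma adjusted p = 0.00195) and by 1.42 ± 0.23 in Ceacam1-/- (limma adjusted p = 0.000282). Pdgfc, a ligand of that receptor, rose by 1.40 ± 0.32 in Ceacam1-/- under the same setting (limma adjusted p = 0.00611). None of 12 other Notch ligands, receptors and targets passed, with medians of 0.074 and -0.085. Dll4, the ligand of sprouting endothelium, was at 270.2, 253, 416 and 241 in the wild type without laser and from 353 to 929 with it, a log2 difference of 0.92 ± 0.32 (limma adjusted p = 0.0986). It passed in the wild type without libraries 14, 15 and 18 (0.92 ± 0.25, limma adjusted p = 0.0203). The endothelial list, led by Plvap, the diaphragm protein of fenestrated capillaries, had 12 of 12 genes higher after laser in the wild type and 2 of 12 in Ceacam1-/-, and none passed in either. The medians were 0.41 and -0.27, and over all genes 42.1% and 51.2% of log2 differences were positive. In Ceacam1-/- without libraries 14, 15 and 18, 9 of the 12 were positive, with a median of 0.43.

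The channel subunits Kcnj8 and Abcc9 have relatives in other tissues. Kcnj11 (chromosome 7, 45743377 to 45750188) and Abcc8 (chromosome 7, 45753947 to 45829473) encode the pore and sulfonylurea receptor used in pancreatic beta cells and neurons, and Kcnj11 is also the pore in skeletal muscle. Kcnj11 was at 332, 708, 260.4 and 519 in the wild type without laser and 67.5 to 298 with it. In Ceacam1-/- it was at 167, 669, 668 and 394 without laser and at 85.1, 45.2, 128, 69.7, 83.1, 117 and 199 with it, and a single lasered library, 18, lay above the lowest without laser. It fell by 2.12 ± 0.44 on the log2 scale in Ceacam1-/- (limma adjusted p = 0.00946) and differed by -1.41 ± 0.42 in the wild type, where it did not pass (limma adjusted p = 0.0525). Abcc8 differed by -1.67 in the wild type and -1.64 in Ceacam1-/- without passing. Leaving out libraries 14, 15 and 18, Kcnj11 passed in the wild type (-1.41 ± 0.41, limma adjusted p = 0.0323) and in Ceacam1-/- (-2.42 ± 0.49, limma adjusted p = 0.0024), and Abcc8 passed in Ceacam1-/- (-2.73 ± 0.69, limma adjusted p = 0.0146). Kcnj11 also passed in the wild type with the mean of the photoreceptor list as a covariate (limma adjusted p = 0.0368), as did 6.53% of all genes. With the mean of the skeletal muscle list as a covariate, Kcnj11 was at -1.29 ± 0.42 in Ceacam1-/- and did not pass (limma adjusted p = 0.128). It also did not pass without library 24 (limma adjusted p = 0.0536), without library 25 (0.0707) or in a fit of the Ceacam1-/- libraries alone (0.122).

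Acta2 has near-identical relatives, and reads shared among actins could be divided between them. Acta1, the skeletal muscle actin, had a mean of 78954 normalized counts over 24 libraries. Acta2 amounted to 4.46% to 19.1% of Acta1 in the wild type without laser and 15.9% to 54.5% with it, and to 2.38% to 45.2% and 11.5% to 93.1% in Ceacam1-/-. Whether reads were divided in this way was not tested, and the level of Acta2 is uncertain to that extent. Its neighbour in sequence Actg2, the enteric smooth muscle actin, was at 205, 334, 459.5 and 159 in the wild type without laser and between 268 and 1098 with it, a log2 difference of 0.92 (limma adjusted p = 0.295) on the same side of 0 as that of Acta2, and it differed by 0.12 in Ceacam1-/-. Acta1 and the cardiac actin Actc1 were lower after laser and did not pass. Of the actins, Actb, the cytoplasmic form found in all cells, rose in the wild type, from 11142, 25417, 19244 and 16921 to between 28175 and 65339 without overlap, by 1.22 ± 0.32 on the log2 scale (limma adjusted p = 0.0267). It did not pass without library 21 (1.00 ± 0.35, limma adjusted p = 0.151) or without library 27 (limma adjusted p = 0.0863). These were 2 of the 3 settings, out of 40, in which it did not pass. In Ceacam1-/- it differed by 0.30 ± 0.34. The gene next to Pdgfrb on the chromosome, Csf1r, which encodes the growth factor receptor of macrophages, was at 1622, 1318, 3569.8 and 2142 in the wild type without laser and between 2626 and 5654 with it, a log2 difference of 0.89 (limma adjusted p = 0.186), and it differed by -0.28 in Ceacam1-/-. There it was at 979, 798 and 831 in libraries 14, 15 and 18 and 2891 to 3554 in libraries 4 to 7. Leaving out the former 3, the difference was 0.54 ± 0.27 in Ceacam1-/- (limma adjusted p = 0.228) and Csf1r passed in the wild type (0.89 ± 0.23, limma adjusted p = 0.0146).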

How the data were processed

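RNA of the choroid (retinal pigment epithelium, choroid and sclera) was sequenced by the authors from SMART-Seq libraries. Per the labels' processing notes, FastQC 0.11.5, Salmon 1.10.3 and DESeq2 1.44.0 were used with GRCm39. The deposited signal values are normalized counts, which the authors made by dividing estimated reads by factors for library size and transcript length, so count models were not used. The authors removed 1 outlier without naming it, and their sex covariate is not in the labels. Scaling, pooling of cells and admixed tissue can bear on values of this kind, and the part of admixed tissue here was not tested.

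Groups came from the labels, and 99.1% of gene identifiers matched the annotation. Differences were tested with limma 3.58.1 (R 4.3.3, variance trend) on log2 of the deposited value plus 1, for genes with a mean of at least 10, with Benjamini-Hochberg adjustment over all genes and a threshold of 0.05. Laser and its interaction with genotype used all 24 libraries as 4 group means, genotype the 8 libraries without or the 16 with laser. The script was tested on simulated data. The unlasered libraries are from 4 mice of each genotype per the study's legends, and nothing states that the laser libraries are separate animals, so their p-values measure the spread between libraries. Laser libraries are numbered 1 to 19 and the others 21 to 28, and what the numbers stand for is not given in the sources used here.

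The 10 genes and all lists were chosen with earlier results of these data known. Named were the 10 genes, list genes that passed in a laser comparison, the most abundant and the called genes of marker lists, paralogs and channel relatives, the neighbour Csf1r, and the 5 genes most like Pdgfrb, Rgs5, Myh11 and Pdgfb. Alternatives concerned pseudocounts (0.5 and 10), filters (none and 50), scaling, variances, covariates and libraries left out. Promoter windows came from RefSeq.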

Additional observations from a re-analysis of the deposited data

Results flagged for a closer look

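Of 40 gene and group combinations examined for a gap (10 mural genes in 4 groups), 1 had a library that lay apart from the rest of its group, where chance gives about 5%, or 2 of 40. Rgs5 in the Ceacam1-/- group without laser was at 5520.0 normalized counts in library 23, and the nearest of the other 3 libraries was at 9129, a gap of 0.855 of the group's range. Library 23 was also one of the 5 with the highest photoreceptor sums and had the highest Schwann cell sum, and the part of these in the low Rgs5 was not tested.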

How the results depend on the processing

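No mural gene passed when any single library was left out, and the call of 0 of 10 held under every alternative in every comparison except laser in the wild type. There, limma with array weights called 3 genes (Pdgfrb, 1.01, adjusted p = 0.0032; Pdgfb, 0.57, 0.029; Acta2, 1.09, 0.0061), where 32.6% of all genes passed. A fit of the wild type libraries alone called 1 (Acta2, 0.84, 0.0371; 11.6% of all genes), as did the skeletal muscle covariate (Pdgfb, 0.90, 0.0374; 18.3%) and leaving out libraries 14, 15 and 18 (Pdgfrb, 0.81, 0.0434; 10.8%). Log2 differences changed sign as follows, and the cause was not tested. Array weights gave, for laser in Ceacam1-/-, Pdgfrb 0.46 and Acta2 0.27, for genotype without laser Abcc9 0.069 and Acta2 0.48, and for genotype with laser Pdgfb 0.097 and Myh11 0.31. The skeletal muscle covariate gave, for laser in the wild type, Rgs5 0.083, Notch3 0.14 and Kcnj8 0.25, for laser in Ceacam1-/- Pdgfrb 0.40, Cspg4 0.064, Abcc9 0.42, Acta2 0.52 and Tagln 0.060, and for genotype with laser Pdgfb 0.0064 and Myh11 0.19. The photoreceptor covariate gave, for laser in the wild type, Abcc9 -0.038 and Tagln -0.052, for laser in Ceacam1-/- Pdgfrb 0.39, Abcc9 0.10 and Acta2 0.50, for the interaction Pdgfb 0.27, Rgs5 0.26, Abcc9 0.14, Acta2 0.035, Tagln 0.048 and Myh11 0.55, for genotype without laser Pdgfrb -0.21, Pdgfb -0.29, Cspg4 -0.035, Notch3 -0.38, Tagln -0.033 and Myh11 -0.20, and for genotype with laser Myh11 0.31. Leaving out libraries 14, 15 and 18 gave, for laser in Ceacam1-/-, Pdgfrb 0.76, Rgs5 0.020, Cspg4 0.13, Abcc9 0.31, Acta2 0.83, Tagln 0.26 and Myh11 0.043, for the interaction Pdgfb 0.0092, Rgs5 0.21, Abcc9 0.082 and Myh11 0.56, and for genotype with laser Pdgfrb 0.083, Pdgfb 0.099, Cspg4 0.071, Tagln 0.092 and Myh11 0.57. Leaving out libraries 21 and 23 as well gave, for laser in Ceacam1-/-, Pdgfrb 0.49, Acta2 0.68 and Tagln 0.10, and for the interaction Rgs5 0.23 and Myh11 0.54. Pdgfb with laser in Ceacam1-/- was at -0.012 under quantile normalization and -0.15 without libraries 14 and 23, and a Y-linked covariate gave, for genotype without laser, Notch3 -0.0015 and Myh11 -0.028. Pseudocounts, filters, upper-quartile scaling, variances without trend or robust, and other libraries in the fit changed no sign of a mural gene.

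Leaving out each library in turn gave, for laser in the wild type, Rgs5 -0.41 to 0.014 and Notch3 -0.52 to 0.11, for laser in Ceacam1-/- Pdgfrb -0.37 to 0.095, Pdgfb -0.30 to 0.21 and Acta2 -0.29 to 0.17, and for genotype without laser Pdgfrb -0.078 to 0.41, Pdgfb -0.11 to 0.39, Notch3 -0.33 to 0.37, Kcnj8 -0.35 to 0.088, Abcc9 -0.57 to 0.027, Acta2 -0.25 to 0.17, Tagln -0.057 to 0.41 and Myh11 -0.28 to 0.29, and no other sign changed. The median r among the 10 genes was 0.778 with 24 libraries and 0.427 with 19. Counts over all genes moved more. Laser in the wild type called 1053 genes, 2128 without libraries 14, 15 and 18, 1645 without libraries 21 and 23 as well, 2274 with only wild type libraries, 3647 with the skeletal muscle covariate and 6505 with array weights. Laser in Ceacam1-/- called 742, and 38 with only Ceacam1-/- libraries, 2158 without 14 and 23, 2005 without 14, 15 and 18, 2923 without all 5, 437 with no filter, 455 with the skeletal muscle covariate and 3551 with array weights. Genotype with laser called 4 genes, 1 with the skeletal muscle covariate, 2 with a mean of at least 50 or without libraries 14, 15 and 18, 9 with all 24 libraries and 297 with array weights. Genotype without laser called 1 gene with array weights, without the trend or without library 24. The choices of leaving out libraries 14, 15 and 18, and 21 and 23 with them, were made after seeing the data. No paired analysis was possible because no library number occurs in more than 1 group. The depth in reads was not given, and precision rests on 4 to 9 libraries a group.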

Other observations

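Some genes of the myofibroblast and fibroblast lists rose after laser, where 5.28% of all genes passed in the wild type and 3.72% in Ceacam1-/-. Of 6 myofibroblast genes, 4 rose in the wild type, namely Tnc by 3.44 ± 0.43, Cthrc1 by 3.35 ± 0.52, Postn by 3.25 ± 0.57 and Lox by 3.12 ± 0.52 on the log2 scale, and 3 of these (Tnc, Lox and Cthrc1) rose in Ceacam1-/-, by 2.84 ± 0.45, 2.65 ± 0.54 and 2.24 ± 0.55 (limma, adjusted p from 3.06e-05 to 0.0242). Tnc, Postn and Cthrc1 encode matrix proteins of wound repair and Lox an enzyme that cross-links collagen. Of 8 fibroblast genes, 2 rose in the wild type (Col3a1 and Lum) and 1 in Ceacam1-/- (Lum). Col3a1 and Lum rose in the wild type by 2.50 ± 0.57 and 1.90 ± 0.52, and Lum rose in Ceacam1-/- by 2.11 ± 0.54. Leaving out 1 library at a time, the 4 myofibroblast genes passed in the wild type throughout, while Col3a1 did not pass without library 21 (limma adjusted p = 0.0599) and Lum without 4 of 24 libraries in the wild type (3, 21, 22 and 27, adjusted p up to 0.148) and 5 of 24 in Ceacam1-/- (5, 6, 7, 24 and 25, up to 0.174). In Ceacam1-/-, Cthrc1 did not pass without library 24 or 25 (0.0664 and 0.102) and Lox without library 25 (0.0707).

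Of 10 myeloid genes, 9 rose in the wild type and 6 in Ceacam1-/-, among them Cd68, a lysosomal protein of macrophages, by 2.77 ± 0.41 and 2.05 ± 0.42, and Ptprc, the leukocyte antigen CD45, by 2.21 ± 0.30 and 1.55 ± 0.31. Of 3 platelet genes tested, Pf4 rose in each genotype, by 2.15 ± 0.40 and 1.77 ± 0.42. Leaving out 1 library at a time, Itgam did not pass in the wild type without library 21 (limma adjusted p = 0.0612). In Ceacam1-/-, Tyrobp did not pass without 5 of 24 libraries (5, 6, 7, 24 and 25, adjusted p up to 0.110), Aif1 without 4 (5, 7, 24 and 25, up to 0.112) and Adgre1, Ptprc and Pf4 without library 25 (0.0595, 0.0690 and 0.106), and none of the genes named here passed in a fit of the Ceacam1-/- libraries alone (lowest adjusted p of 0.0647, for Tnc). The RPE list, led by Ttr, had 0 of 8 genes called in either genotype. Neither had the lens list (7 genes, led by Cryaa), the melanocyte list (6, led by Dct), the surface epithelium list (6, led by Krt15) or the Schwann cell list (6, led by Mbp). The interaction and the genotype comparisons called no gene of any list.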
